A study of Mus musculus with 18 samples.

Results

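Ribosome footprints that lie on 5' leaders, the stretch of an mRNA before its main coding sequence, were compared between tunicamycin-treated and untreated mouse erythroblasts with the leader counts alone. The deposited count table held 18819 leader lines among 58476 lines in all, of which 9973 had at least 1 read in the 6 cycloheximide footprint libraries and 4469 had enough reads to be tested. Leaders entered because they are leaders and not for their values, and each was scaled against the typical leader, so that no coding sequence (CDS) count entered the main comparison. Total RNA libraries of the same groups (3 each) were used for the differences from RNA, and harringtonine footprints were not used. The tunicamycin group was given 2.5 ug/ml for 1.5 h and the untreated group was not, with 3 libraries in each. Both groups were erythroblasts, the nucleated precursors of red blood cells, from fetal liver of Trp53 -/- mice of strain FVB/n x C57BL/6, so that both groups carry the Trp53 deletion. The StemPro cultures held dexamethasone, erythropoietin and stem cell factor. Cycloheximide at 100 ug/ml for the last 5 min froze the ribosomes in place. Neither the age of the embryos nor the number of animals or cultures behind the 3 libraries of a group is given in the labels, so p-values measure the spread between these libraries, which may be technical. Tunicamycin stops the attachment of N-linked sugars to new proteins, which stresses the endoplasmic reticulum (ER). The series design gives eIF2 phosphorylation as the aim of the treatment.

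A scanning ribosome passes through the leader before it meets the start codon of the coding sequence, and many leaders hold short upstream open reading frames (uORFs) on which ribosomes also initiate. Phosphorylated eIF2 lowers the supply of initiator tRNA complexes. Most mRNAs are then translated less, while a small set, with Atf4 the best known, escapes because scanning ribosomes pass an inhibitory upstream frame and reach the coding sequence. Leader footprints read the upstream part of that process, and red-cell precursors depend on it because the haem-regulated eIF2 kinase matches globin synthesis to haem.

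Leaders held 423382, 390872 and 590029 reads in tunicamycin libraries 1 to 3 and 361814, 274822 and 371428 reads in untreated libraries 1 to 3. That was 7.71%, 7.77% and 10.2% of annotated footprints in the tunicamycin libraries and 5.06%, 3.98% and 5.36% in the untreated libraries. The means were 8.56 ± 1.41% under tunicamycin and 4.80 ± 0.724% without it (SD, n = 3 each), a difference of 3.76 percentage points with no overlap (2-sided exact permutation test, p = 0.1, the smallest that 3 against 3 allow). Scaling among leaders removes this shift, which is the reason that every rise and fall below is relative to the typical leader. The Trp53 leader had 319, 308 and 274 CPM in the tunicamycin libraries and 231, 158 and 306 CPM in the untreated libraries, where CPM is leader reads in 1000000 tested leader reads after scaling. The values overlapped and did not pass (log2 0.35 ± 0.20 SE, adjusted p = 0.295). Reads were present in every library, and the deleted stretch cannot be read from a total for the gene, so the genotype label was not checked here. All 8 erythroblast markers had leader reads, though Klf1 had 2 over the 6 libraries. Of 29 markers of macrophages, neutrophils and monocytes, megakaryocytes, mast cells, hepatocytes, endothelium and stroma, 24 were at 0 leader reads, and the summed reads were 116 to 207 in tunicamycin and 76 to 114 in untreated libraries, nearly all from the IgE receptor gene Ms4a2 (log2 0.14 ± 0.21 SE, adjusted p = 0.749).

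Relative to the typical leader, 233 leaders rose under tunicamycin and 213 fell, 446 of the 4469 tested (9.98%, adjusted p under 0.05), with 1064 at an unadjusted p under 0.05. The increases made up 5.21% and the decreases 4.77% of leaders tested, the shares to set beside the counts of each gene list below. Rises ran from 0.53 to 2.38 on the log2 scale and falls from -2.35 to -0.51. Of the 233, 229 had no overlap between the treatments, and of the 213, 199. The same was true of 800 of the 4023 leaders that did not pass, so separate groups alone are common among 3 against 3 libraries. Fewer cells of a type and less RNA per cell cannot be told apart in these bulk libraries. The call count fell to 146 without tunicamycin replicate 3, to 289 without tunicamycin replicate 2 and to 214 without untreated replicate 2. When leaders were scaled to the CDS counts of the same libraries, the median leader moved from -0.01 to 0.92, 3103 leaders passed as higher and 3 as lower. Those 3 were Plec, Nt5dc2 and the actin nucleator gene Spire1, the last named after its values were seen (-1.40, -0.96 and -1.05 on that scale). With leaders scaled among themselves, Spire1 was at log2 -1.99 ± 0.33 SE, adjusted p = 0.000183. No other leader passed as lower when read against coding footprints, so the falls below are falls relative to the typical leader.

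**Figure D1:**
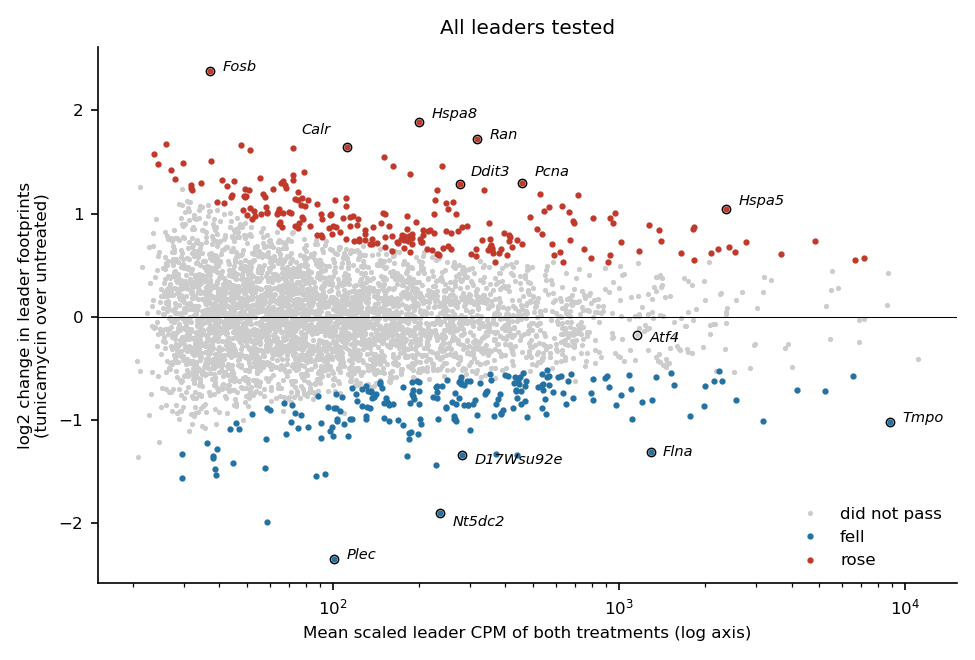
Log2 change in leader footprints (tunicamycin over untreated, scaled among leaders) against mean scaled leader CPM on a log axis, 1 point for each of the 4469 leaders tested. Red points rose (233), blue points fell (213) and grey points did not pass; named leaders are circled, from Fosb at 2.38 to Plec at -2.35.

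The mRNAs known for upstream reading frames that keep their coding sequence translated under eIF2 phosphorylation did not move together in their leaders. Of 16 such mRNAs 13 had a tested leader, and 2 rose, 3 fell and 8 did not pass, with a median of -0.18 beside -0.01 over all leaders tested. Ibtk, Cebpa and Bace1 had too few leader reads. The coding footprints of the 13 had a median change of 0.67. The leader change was lower than the CDS change, by a test of the difference itself, for 9 of the 13 and higher for 0. Here and below, that test reads the leader change against the typical leader and the CDS change against the typical CDS. The shift of the median leader when scaled to CDS counts (0.92) is left out. A lower leader change is thus not by itself a fall in leader reads per CDS read. Over all 4417 genes in that test 326 were lower (7.38%) and 228 higher (5.16%). The list was written for kept coding translation and with earlier results of these data known. Its CDS median and the 9 lower differences are therefore no independent result.

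Ddit3, which encodes the stress transcription factor CHOP, had 302, 439.57 and 434 CPM in tunicamycin-treated cells, against 123, 192 and 172 CPM in untreated cells. All 3 treated libraries lay above the untreated ones. The leader rose (log2 1.29 ± 0.20 SE, adjusted p = 0.000125) under each of 17 alternatives. Its CDS change was 2.45 ± 0.23 and its RNA change 0.85 ± 0.13. With each scaled within its own feature, the leader moved less than the CDS (difference -1.16 ± 0.24, adjusted p = 0.00272). It moved beyond the RNA by an amount that did not pass (0.45 ± 0.26, adjusted p = 0.319). The Atf4 leader had 1015, 1077 and 1144 CPM in tunicamycin-treated cells, against 810.23, 1496 and 1372 CPM in untreated cells. The treated values lay inside the untreated range and did not pass (log2 -0.18 ± 0.19 SE, adjusted p = 0.617), beside a CDS change of 2.18 ± 0.11. The difference between leader and CDS was -2.32 ± 0.18, adjusted p = 2.28e-09, the smallest p in the list, and the difference from RNA did not pass (-0.33 ± 0.22, adjusted p = 0.372).

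Slc35a4, a solute carrier gene whose leader carries a long upstream frame, had 256, 218 and 207 CPM under tunicamycin, against 357, 454 and 380.24 CPM without it, with no overlap. The leader fell (log2 -0.80 ± 0.18 SE, adjusted p = 0.00423; 0.13 when scaled to CDS counts) while its CDS, at 96 reads over 6 libraries, changed by 1.63 ± 0.34. The leader change was below the CDS change by -2.43 ± 0.36, adjusted p = 8.45e-05. Its difference from the RNA change was smaller (-0.54, adjusted p = 0.0438) and did not pass under 11 of 16 alternatives. The leader call ended without tunicamycin replicate 3 (0.0566). D17Wsu92e had 236, 150.03 and 97.1 CPM in the tunicamycin libraries, against 354, 458 and 397 CPM in the untreated libraries. It fell most in the list (log2 -1.34 ± 0.22 SE, adjusted p = 0.00021), with a CDS change of 0.15 ± 0.11 and an RNA change of -0.03 ± 0.07. The leader change was below both of them (differences of -1.52 ± 0.22, adjusted p = 8.45e-05 from CDS and -1.32 ± 0.25, adjusted p = 0.00283 from RNA).

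Ppp1r15b, the constitutive subunit of the eIF2 phosphatase, had 879, 748 and 565 CPM in tunicamycin-treated cells, against 1056, 984 and 1201 CPM in untreated cells, and its leader fell (log2 -0.57 ± 0.18 SE, adjusted p = 0.0365; 0.32 when scaled to CDS counts). That call ended without tunicamycin replicate 2 (0.129) or 3 (0.302) or without untreated replicate 2 (0.0718) or 3 (0.0842). Ppp1r15a, its stress-induced counterpart GADD34, had 119, 205 and 155 CPM under tunicamycin, against 111, 146 and 132 CPM without it. The groups overlapped and the leader did not pass (log2 0.31 ± 0.23 SE, adjusted p = 0.442), beside a CDS change of 1.10 ± 0.18 and a leader-to-CDS difference of -0.82 ± 0.24, adjusted p = 0.021, which did not pass without tunicamycin footprint replicate 3 (0.201), without untreated footprint replicate 1 (0.0621) or 2 (0.0628) or with DESeq2 (0.14). Pnrc2, which acts in mRNA decay, had 5326 leader and 1111 CDS reads over 6 libraries, with 1940.0, 2064 and 2248 CPM in the tunicamycin libraries, against 2382, 2757 and 2630.2 CPM in the untreated libraries. Its leader did not pass (log2 -0.31 ± 0.17 SE, adjusted p = 0.258), its CDS changed by 0.99 ± 0.16, and the difference was -1.28 ± 0.18, adjusted p = 7.76e-05. For Ifrd1, a transcriptional regulator, the leader was at log2 -0.27 ± 0.19 SE, adjusted p = 0.412 and the CDS at 0.93 ± 0.10 (difference -1.19 ± 0.19, adjusted p = 0.000235).

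Eprs, the glutamyl-prolyl tRNA synthetase gene, had 148, 126 and 141 CPM in tunicamycin-treated cells, against 71.3, 88.4 and 88.6 CPM in untreated cells. The leader rose (log2 0.75 ± 0.23 SE, adjusted p = 0.0324). The Eprs call ended without tunicamycin replicate 1 (0.0965) or 3 (0.103), without untreated replicate 1 (0.0966) or 2 (0.0684) or 3 (0.0512) or with DESeq2 (0.101). Atf5, a transcription factor related to ATF4, had 31.6, 36.9 and 37.1 CPM under tunicamycin, against 65.6, 73.0 and 51.5 CPM without it. Its groups did not overlap, but the leader did not pass (log2 -0.82 ± 0.30 SE, adjusted p = 0.0803), while the leader-to-CDS difference did (-1.47 ± 0.33, adjusted p = 0.00418). The C/EBP family genes Cebpb (-0.06 ± 0.22, 0.898) and Cebpg (0.55 ± 0.25, 0.167) and the arginine transporter gene Slc7a1 (0.04 ± 0.21, 0.931) did not pass (log2 ± SE, adjusted p).

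**Figure D2:**
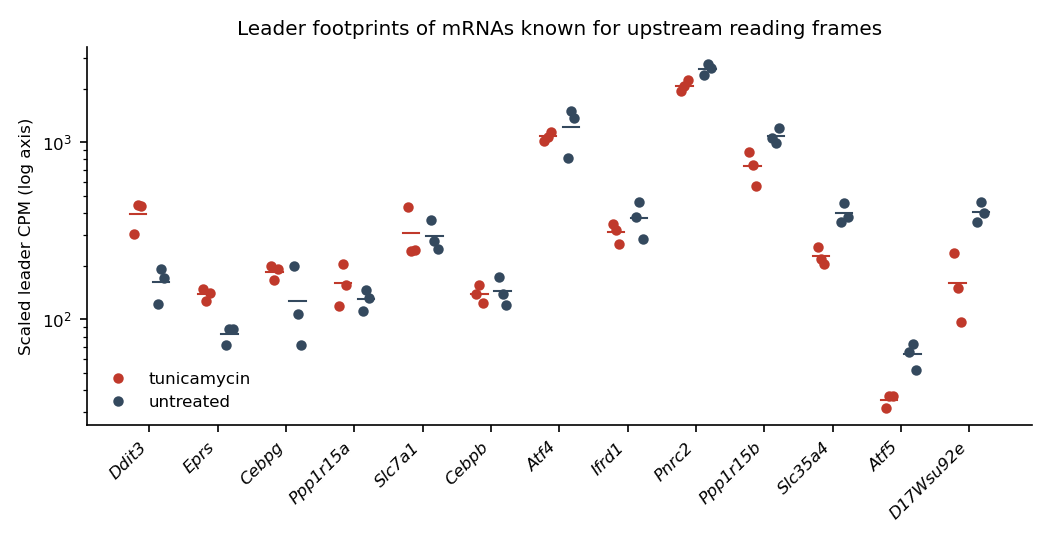
Scaled leader CPM (log axis) of the 13 tested leaders of mRNAs known for upstream reading frames, ordered by log2 change, with tunicamycin libraries in red to the left of untreated libraries in dark blue (3 points each, bars are means). Ddit3 and Eprs stand higher under tunicamycin without overlap, and Slc35a4, Ppp1r15b and D17Wsu92e lower, while the Atf4 points overlap.

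Leaders that passed had, in the median, hardly any change in coding footprints or RNA. The 233 leaders that rose had a median CDS change of 0.05 and a median RNA change of 0.04, and the 213 that fell had -0.05 and -0.02. The leader change passed as higher than the CDS change for 171 of the 233 and as higher than the RNA change for 163, and as lower for 160 and 174 of the 213. Of all leader-to-RNA differences 204 passed as higher (4.58%) and 219 as lower (4.92%). In all, 554 of 4417 leader-to-CDS differences passed (12.5%), against 146 when tunicamycin replicate 3 was left out, 275 without untreated replicate 2 and 329 without tunicamycin replicate 2. Of 4455 leader-to-RNA differences 423 passed (9.49%), with 179 without tunicamycin footprint replicate 3, 217 without untreated footprint replicate 2 and 269 without untreated RNA replicate 2. Leader counts of a gene enter both its leader change and its differences, so these counts are not independent of the leader calls.

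**Figure D3:**
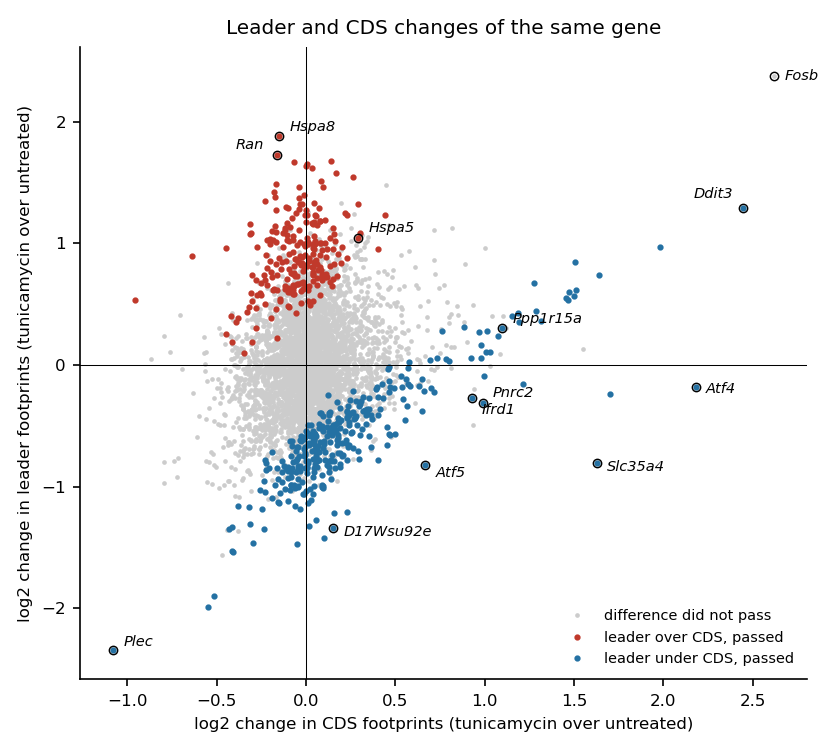
Log2 change in leader footprints against log2 change in CDS footprints of the same gene (both tunicamycin over untreated, each scaled within its own feature), 1 point a gene. Red points passed as leader over CDS (228) and blue points as leader under CDS (326); Hspa8 and Ran lie high at a CDS change near 0, and Atf4 and Slc35a4 lie to the right at a leader change below 0.

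The 15 largest increases among well-covered leaders ran from 1.88 for Hspa8 to 1.30 for Pcna. Hspa8, the constitutive cytosolic Hsp70 chaperone, had 265, 300.06 and 376 CPM in tunicamycin-treated cells, against 94.1, 80.7 and 80.1 CPM in untreated cells. Ran, the GTPase of nuclear transport, had 416, 519 and 529.85 CPM under tunicamycin, against 139.79, 123 and 177 CPM without it. Each treated library was above each untreated one by a wide margin, and both leaders rose (Hspa8 log2 1.88 ± 0.22 SE, adjusted p = 6.69e-07; Ran log2 1.72 ± 0.19 SE, adjusted p = 6.69e-07). Their CDS changes were -0.15 ± 0.12 and -0.16 ± 0.11, with differences from the leader of 2.03 ± 0.21, adjusted p = 6.62e-07 for Hspa8 and 1.88 ± 0.22, adjusted p = 3.43e-06 for Ran.

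Top2a, the topoisomerase that untangles replicated chromosomes, had 326, 308 and 422 CPM in the tunicamycin libraries, against 134, 131 and 120.08 CPM in the untreated libraries. Pcna, the sliding clamp of DNA replication, had 565, 779 and 604 CPM in tunicamycin-treated cells, against 291, 296 and 206 CPM in untreated cells. The groups were apart in both cases (Top2a log2 1.46 ± 0.20 SE, adjusted p = 1.86e-05; Pcna log2 1.30 ± 0.19 SE, adjusted p = 3.68e-05). Anln, a scaffold of the cytokinetic ring, had 109.53, 132 and 102 CPM under tunicamycin, against 59.9, 53.8 and 17.2 CPM without it, with untreated replicate 3 far below the other untreated libraries (log2 1.40 ± 0.30 SE, adjusted p = 0.00306). Brca1, a DNA repair gene, and Dek, a chromatin protein gene, rose as well (Brca1 log2 1.32 ± 0.28 SE, adjusted p = 0.00253; Dek log2 1.63 ± 0.29 SE, adjusted p = 0.00038).

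Among mitochondrial and metabolic genes, Uqcrc2, a core subunit of respiratory complex III, had 256, 226 and 233 CPM in the tunicamycin libraries, against 79.9, 73.0 and 103 CPM in the untreated libraries (log2 1.47 ± 0.22 SE, adjusted p = 3.69e-05). Chchd10, a protein of the mitochondrial intermembrane space, had 73.0, 65.8 and 79.5 CPM in tunicamycin-treated cells, against 34.2, 15.4 and 17.2 CPM in untreated cells (log2 1.67 ± 0.34 SE, adjusted p = 0.00158), and Pfkm, the muscle-type phosphofructokinase of glycolysis, was at log2 1.62 ± 0.32 SE, adjusted p = 0.0014. Magoh, a core protein of the exon junction complex, had 229, 203 and 237 CPM under tunicamycin, against 57.1, 88.4 and 85.8 CPM without it (log2 1.55 ± 0.23 SE, adjusted p = 3.68e-05). The untreated values of all 4 were below the lowest treated one. Psmd13, a subunit of the proteasome's regulatory particle, had 251, 237 and 314 CPM in the tunicamycin libraries, against 139.79, 96.1 and 71.5 CPM in the untreated libraries (log2 1.38 ± 0.23 SE, adjusted p = 0.00017). Ufd1l, a cofactor of the p97 ATPase in ER-associated degradation, and the membrane-bound metalloproteinase gene Mmp14 rose too (Ufd1l log2 1.32 ± 0.29 SE, adjusted p = 0.00322; Mmp14 log2 1.34 ± 0.32 SE, adjusted p = 0.00645, not passing without untreated replicate 3 (0.0542)).

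Calr, also among these 15, is described with the ER chaperones. Chchd10 and Anln had at least 10 reads in all 3 tunicamycin libraries and not in all 3 untreated ones, a set picked by the counts that the test used. All 15 also passed as higher than the CDS and as higher than the RNA of the same gene. The Brca1 difference from CDS did not pass without tunicamycin footprint replicate 3 (0.0541) or with DESeq2 (0.0592), and its difference from RNA did not pass without tunicamycin footprint replicate 3 (0.0644) or without untreated footprint replicate 2 (0.0539) or 3 (0.055). For Calr the difference from RNA did not pass without tunicamycin footprint replicate 3 (0.0585) or without untreated footprint replicate 3 (0.0526).

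The 15 largest decreases ran from -2.35 for Plec to -1.16 for Txndc5. Plec, which encodes the cytolinker plectin, had 53.5, 21.1 and 23.0 CPM in tunicamycin-treated cells, against 88.4, 261 and 154 CPM in untreated cells. Flna, the actin crosslinker filamin A, had 1013, 661 and 551 CPM under tunicamycin, against 1489, 2291 and 1709.7 CPM without it. The treated libraries lay below the untreated ones in both, and both leaders fell (Plec log2 -2.35 ± 0.34 SE, adjusted p = 3.68e-05; Flna log2 -1.30 ± 0.20 SE, adjusted p = 8.34e-05, -0.38 when scaled to CDS counts). The CDS of Plec changed by -1.08 ± 0.30 and that of Flna by -0.31 ± 0.15, while their RNA was at 0.16 ± 0.08 and 0.54 ± 0.10. The leader changes were below the RNA changes (Plec -2.50 ± 0.38, adjusted p = 0.000767; Flna -1.85 ± 0.25, adjusted p = 0.000298). The difference of the Plec leader from its CDS (-1.21 ± 0.28, adjusted p = 0.00568) did not pass without tunicamycin footprint replicate 1 (0.0627) or without untreated footprint replicate 2 (0.053).

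Nt5dc2, a gene of the nucleotidase domain family, had 109.53, 97.4 and 91.8 CPM in the tunicamycin libraries, against 297, 465 and 360.23 CPM in the untreated libraries, and fell under each of 17 alternatives (log2 -1.90 ± 0.21 SE, adjusted p = 6.25e-07). Gls2, the liver-type glutaminase, had 53.5, 44.7 and 37.1 CPM in tunicamycin-treated cells, against 157, 123 and 109 CPM in untreated cells (log2 -1.54 ± 0.26 SE, adjusted p = 0.000302). Pgls, an enzyme of the pentose phosphate pathway, had 265, 295 and 189 CPM under tunicamycin, against 585, 661 and 629 CPM without it (log2 -1.33 ± 0.18 SE, adjusted p = 1.86e-05). None of these 3 had overlapping groups. Socs3, a feedback inhibitor of cytokine signalling, had 231, 255 and 154 CPM in the tunicamycin libraries, against 445, 549.77 and 598 CPM in the untreated libraries (log2 -1.33 ± 0.19 SE, adjusted p = 3.68e-05), but only 15 CDS reads against 787 leader reads over 6 libraries. Aebp2, a partner of the Polycomb repressive complex, the adaptor gene Sh3kbp1 and the ER disulfide isomerase gene Txndc5 also fell (Aebp2 log2 -1.46 ± 0.29 SE, adjusted p = 0.0014; Sh3kbp1 log2 -1.35 ± 0.21 SE, adjusted p = 0.000108; Txndc5 log2 -1.16 ± 0.24 SE, adjusted p = 0.00251, not passing without tunicamycin replicate 3 (0.059)).

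Fam134a (-1.19 ± 0.24, 0.00158), the atypical GTPase gene Rhobtb1 (-1.18 ± 0.29, 0.00854) and the small GTPase gene Rab28 (-1.17 ± 0.30, 0.00964) fell too (log2 ± SE, adjusted p). The Rhobtb1 call ended without tunicamycin replicate 2 (0.0562) or without untreated replicate 3 (0.063), and the Rab28 call ended without tunicamycin replicate 2 (0.0827) or 3 (0.111) or without untreated replicate 2 (0.0847). The other decreases are uncertain in their counts. The Gdf1 leader (-1.52 ± 0.27) had in every library the same count as the coding sequence of Cers1, the only leader tested with counts identical to another gene's CDS, and had no CDS or RNA read of its own. The leader listed for the read-through gene Clk2-scamp3 (-1.43 ± 0.20) had 481 reads but 0 CDS and 0 RNA reads.

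The leaders with the most reads were led by Mt1, a metal-binding metallothionein, with 9712, 9405 and 9396 CPM in tunicamycin-treated cells, against 12219, 12026 and 13614 CPM in untreated cells. The groups did not overlap, but the leader did not pass (log2 -0.41 ± 0.17 SE, adjusted p = 0.135; 0.51 when scaled to CDS counts). Tmpo, which encodes the lamina-associated protein LAP2, had 6657, 6207 and 4594 CPM under tunicamycin, against 11871, 13798 and 9709 CPM without it. The leader fell (log2 -1.02 ± 0.19 SE, adjusted p = 0.000575), beside a CDS change of -0.12 ± 0.09 (difference -0.90 ± 0.13, adjusted p = 8.45e-05) and an RNA change of 0.04 ± 0.07 (difference -1.06 ± 0.21, adjusted p = 0.00385). Arhgdib, an inhibitor of small GTPases, was at log2 -0.58 ± 0.19 SE, adjusted p = 0.0477 with overlapping groups (0.37 when scaled to CDS counts). Its call ended under 10 of 17 alternatives, the removal of any library but untreated replicate 1 among them, with adjusted p up to 0.211. The uncoupling protein gene Ucp2 (-0.02 ± 0.17) and the splicing factor gene Hnrnpa2b1 (-0.24 ± 0.17) did not pass. The other 5 of the 10 were histone genes.

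ER chaperone and degradation genes are direct targets of the unfolded protein response. Of 30, 19 had a tested leader, and 4 rose, 1 fell and 14 did not pass (median 0.18). Hspa5, the ER chaperone BiP, had 3103, 2959 and 3444 CPM in the tunicamycin libraries, against 1575, 1472 and 1572 CPM in the untreated libraries. The treated libraries were close to one another and all above the untreated ones (log2 1.04 ± 0.17 SE, adjusted p = 0.000167). The RNA of Hspa5 changed by 0.78 ± 0.08 and its CDS by 0.29 ± 0.09, and the leader change passed as higher than the CDS (0.75 ± 0.16, adjusted p = 0.00325) and not as different from the RNA (0.26 ± 0.16, adjusted p = 0.351). Calr, the lectin chaperone calreticulin, had 131, 139.50 and 233 CPM in tunicamycin-treated cells, against 71.3, 65.4 and 28.6 CPM in untreated cells (log2 1.65 ± 0.29 SE, adjusted p = 0.000362), with an RNA change of 0.27 ± 0.08. Hsp90b1, the ER member of the Hsp90 family, had 511, 532 and 613 CPM under tunicamycin, against 322, 292 and 369 CPM without it (log2 0.75 ± 0.17 SE, adjusted p = 0.00545). All 3 had separate groups and passed under each alternative run. Herpud1, a component of ER-associated degradation named after its values were seen, had 48.7, 50.01 and 61.8 CPM in the tunicamycin libraries, against 19.97, 23.1 and 31.4 CPM in the untreated libraries (log2 1.11 ± 0.35 SE, adjusted p = 0.0365), at 98 leader reads in all and with an RNA change of 1.36 ± 0.09. Its call ended without tunicamycin replicate 1 (0.0566) or 2 (0.0644) or 3 (0.188), without untreated replicate 1 (0.107) or 2 (0.105) or with limma voom (0.0663). Derl1, a channel of the same degradation pathway, fell (log2 -0.70 ± 0.18 SE, adjusted p = 0.00866; 0.22 when scaled to CDS counts). Its call ended without tunicamycin replicate 2 (0.0737) or 3 (0.0702).

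The ER stress element (CCAAT and, after 9 bases of any kind, CCACG, on either strand), through which ATF6 and its partners act, was searched in the 250 bases before each RefSeq gene start because ER chaperone genes are its best known targets. It was found for 3 of the 188 risen leaders with a promoter in the table (1.6%), Hspa5, Calr and Hsp90b1, for 0 of 173 fallen leaders and for 6 of all 3699 matched (0.162%), beside 0.13% of all genes in the table. The windows below are 30 bases each, from RefSeq on build GRCm38.p6, written 5′ to 3′ on the strand of the gene with the element in capitals. They lie at chr2:34772020-34772049 for Hspa5 (65 to 47 bases before the start), chr8:84847069-84847098 for Calr (162 to 144 bases before the start, element on the other strand) and chr10:86705632-86705661 for Hsp90b1 (212 to 194 bases before the start). Hsp90b1 held another, not shown, at chr10:86705527-86705556 (107 to 89 bases before the start, element on the other strand).
Hspa5: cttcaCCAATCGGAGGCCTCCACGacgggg
Calr: caacgCGTGGTCGACCCTCATTGGcccata
Hsp90b1: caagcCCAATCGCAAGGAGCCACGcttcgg
A match is a description of the letters and not of binding. The element of ATF4 and C/EBP factors, TGATGNAAN, was in the same stretch for 3.72% of risen, 1.73% of fallen and 2.19% of all matched leaders, on either strand, beside 3.89% of all genes in the table. Among the 15 largest increases Psmd13 held it once and Chchd10 at 2 places, and among the 15 largest decreases Rhobtb1 and Txndc5 held it once each. The farther one of Chchd10 lies at chr10:75933035-75933064 (85 to 77 bases before the start), shown with the searched letters in capitals.
Chchd10: tggcacacgcTGATGCAAAtggctgatgca

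Of 36 ATF4 targets, 22 were tested, and 5 rose, 0 fell and 17 did not pass (median 0.33). Over all leaders tested 5.21% rose and 4.77% fell, so 0 fallen of 22 is near the share of all leaders. Beside Ddit3 and Herpud1, Slc3a2, the heavy chain of amino acid transporters, had 1042, 1313 and 1314 CPM in tunicamycin-treated cells, against 650.46, 592 and 649 CPM in untreated cells (log2 0.95 ± 0.17 SE, adjusted p = 0.000458). Psat1, an enzyme of serine synthesis, had 73.0, 121 and 120.10 CPM under tunicamycin, against 74.2, 30.8 and 14.3 CPM without it, where untreated replicate 1 lay above the lowest treated library (log2 1.37 ± 0.34 SE, adjusted p = 0.00854). Ddit4, an inhibitor of the growth kinase mTORC1, had 163, 163 and 249 CPM in the tunicamycin libraries, against 131, 73.0 and 100.06 CPM in the untreated libraries (log2 0.91 ± 0.24 SE, adjusted p = 0.0102), with an RNA change of 0.64 ± 0.12. Slc3a2 passed under each alternative. The Psat1 call ended without tunicamycin replicate 3 (0.0684) or without untreated replicate 2 (0.0568) or 3 (0.0665), and the Ddit4 call without tunicamycin replicate 3 (0.143) or without untreated replicate 2 (0.0828). Herpud1 and Psat1 had at least 10 reads in all 3 tunicamycin libraries and not in all 3 untreated ones. Such leaders are picked by the same counts that the test used, so their rises add no separate result to the 5.

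The cytosolic tRNA synthetases, many of them ATF4 targets too, had 17 tested leaders of 20, and 3 rose, 1 fell and 13 did not pass (median 0.41). Lars, the leucyl synthetase, had 304, 368 and 349.70 CPM in tunicamycin-treated cells, against 171, 158 and 166 CPM in untreated cells (log2 1.04 ± 0.19 SE, adjusted p = 0.000462), higher than its CDS (0.91 ± 0.19, adjusted p = 0.00229) and its RNA (0.88 ± 0.16, adjusted p = 0.00283). Iars, for isoleucine, had 53.5, 65.8 and 83.0 CPM under tunicamycin, against 31.4, 30.8 and 28.6 CPM without it (log2 1.17 ± 0.32 SE, adjusted p = 0.0147), and did not pass without tunicamycin replicate 3 (0.132) or with DESeq2 (0.0711). Qars, for glutamine, moved the other way with 207, 174 and 150.12 CPM in the tunicamycin libraries, against 351, 515 and 209 CPM in the untreated libraries (log2 -1.01 ± 0.23 SE, adjusted p = 0.00454). The Qars values did not overlap, though its call ended without tunicamycin replicate 3 (0.0662) or without untreated replicate 2 (0.0983).

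Of 24 cytosolic and mitochondrial chaperone genes 15 were tested, and 3 rose, 1 fell and 11 did not pass (median 0.41). Beside Hspa8, the chaperonin subunit gene Tcp1 rose (log2 0.53 ± 0.17 SE, adjusted p = 0.0378), as did Stip1, which links Hsp70 to Hsp90 (log2 0.60 ± 0.19 SE, adjusted p = 0.0405). Neither call held in all alternatives. The Tcp1 call ended without tunicamycin replicate 1 (0.109) or 2 (0.0738) or 3 (0.12), without untreated replicate 2 (0.0999) or 3 (0.103) or with no filter (0.052), and the Stip1 call without tunicamycin replicate 2 (0.0835) or 3 (0.207), without untreated replicate 2 (0.0783) or 3 (0.166), with DESeq2 (0.0994) or with no filter (0.0555). Dnaja1, a J-domain partner of Hsp70, had 351, 242 and 367 CPM in tunicamycin-treated cells, against 482, 619 and 572 CPM in untreated cells. The leader fell (log2 -0.79 ± 0.18 SE, adjusted p = 0.00522; 0.16 when scaled to CDS counts), a call that ended without tunicamycin replicate 2 (0.0846). The proteasome had 18 tested leaders of 31, with Psmd13 risen, 0 fallen and a median of 0.23.

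Immediate early genes, which switch on within minutes of a signal, had 8 tested leaders of 24, and 3 rose, 0 fell and 5 did not pass (median 0.39). Fosb had 80.3, 71.1 and 37.1 CPM under tunicamycin, against 19.97, 11.5 and 2.86 CPM without it, at 92 leader reads in all. Its log2 change was the largest of all leaders tested (2.38 ± 0.46 SE, adjusted p = 0.00122). Every untreated library had fewer than 10 Fosb leader reads, so Fosb entered the test only through the tunicamycin libraries, where it is high. Its CDS changed by 2.62 ± 0.56 and its RNA by 1.09 ± 0.37, and neither difference from the leader passed (-0.11 ± 0.34, adjusted p = 0.885 for CDS, 1.35 ± 0.85, adjusted p = 0.363 for RNA). Ier2 had 307, 295 and 332 CPM in the tunicamycin libraries, against 194, 115 and 114 CPM in the untreated libraries (log2 1.13 ± 0.21 SE, adjusted p = 0.000575). Myc, which also has a near-cognate start in its leader, had 4617, 4296 and 4426 CPM in tunicamycin-treated cells, against 3498, 2664 and 2567 CPM in untreated cells (log2 0.61 ± 0.17 SE, adjusted p = 0.0206). The Ier2 call held in every alternative, and that of Fosb in the 15 that tested it, which leave out a mean of at least 30 reads. The Myc call ended without tunicamycin replicate 1 (0.0709) or 2 (0.0527) or 3 (0.0698) or without untreated replicate 2 (0.101) or 3 (0.0551).

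Of 25 genes of the G2 and M phases of the cell cycle, 19 were tested, and 3 rose, 0 fell and 16 did not pass (median 0.36). Beside Top2a, the mitotic kinesin gene Kif20a had 180.12, 292 and 238 CPM under tunicamycin, against 139.79, 135 and 143 CPM without it (log2 0.76 ± 0.21 SE, adjusted p = 0.0165) and the mitotic ubiquitin-conjugating enzyme gene Ube2c 90.1, 65.8 and 56.5 CPM in the tunicamycin libraries, against 34.2, 38.4 and 34.3 CPM in the untreated libraries (log2 0.97 ± 0.31 SE, adjusted p = 0.0386). Groups were separate in both. The Kif20a call ended without tunicamycin replicate 2 (0.113) or 3 (0.0684) or without untreated replicate 2 (0.061). That of Ube2c ended without any 1 of the 6 libraries (adjusted p up to 0.181), with DESeq2 and with limma voom.

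Replication-dependent histone genes, whose mRNAs lack a poly(A) tail, had 38 tested leaders of 52, and 13 rose, 0 fell and 25 did not pass (median 0.46, against -0.01 over all leaders). Their CDS changes had a median of 0.81. With each feature scaled on its own, the leader change was lower than the CDS change for 17 and higher for 1. When scaled to CDS counts instead, all 38 histone leaders passed as higher, with a median of 1.40, so the 17 are not falls in leader reads per CDS read. With scaling among leaders, the number that rose was 4 without tunicamycin replicate 3, 7 without untreated replicate 2 and 21 without untreated replicate 3. The number lower than the CDS in the difference test was 10 without tunicamycin replicate 3. The 1 leader higher than its CDS in that test was that of the linker histone gene Hist1h1e, with 652, 795 and 763 CPM in tunicamycin-treated cells, against 302, 319 and 349 CPM in untreated cells (log2 1.19 ± 0.17 SE, adjusted p = 3.68e-05) and a CDS change of 0.08 ± 0.18. Hist3h2a had 1088, 1027 and 1591 CPM under tunicamycin, against 659, 488 and 826 CPM without it (log2 0.91 ± 0.20 SE, adjusted p = 0.00288), Hist4h4 was at log2 0.87 ± 0.19 SE, adjusted p = 0.00387 and Hist1h3h at log2 0.85 ± 0.18 SE, adjusted p = 0.00257. Hist1h2ag, with 8244, 8444 and 9073 CPM in the tunicamycin libraries, against 4642, 5705 and 7022 CPM in the untreated libraries (log2 0.57 ± 0.18 SE, adjusted p = 0.0386), had 17299 leader and 17274 CDS reads, so the same reads may have been counted in both features. Near-identical copies make the count of a single histone gene uncertain. The Hist3h2a and Hist4h4 calls ended without tunicamycin replicate 3 (0.0549 and 0.0855), the Hist1h2ae call (log2 0.55 ± 0.18 SE, adjusted p = 0.0442) ended without tunicamycin replicate 1 (0.131) or 3 (0.194), without untreated replicate 2 (0.186) or with robust edgeR (0.0603), and the Hist1h2ag call ended without tunicamycin replicate 1 (0.0716) or 2 (0.0886) or 3 (0.134), without untreated replicate 1 (0.121) or 2 (0.117) or with robust edgeR (0.0531).

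Cholesterol and fatty acid synthesis genes had 23 tested leaders of 28, and 4 rose, 1 fell and 18 did not pass (median 0.17). Nsdhl, an enzyme of the later steps of cholesterol synthesis, had 231, 339.55 and 404 CPM under tunicamycin, against 159.76, 108 and 146 CPM without it (log2 1.23 ± 0.22 SE, adjusted p = 0.00038). It passed under each alternative and as higher than its CDS (1.21 ± 0.20, adjusted p = 0.000299). Fasn, the fatty acid synthase, rose (log2 1.16 ± 0.31 SE, adjusted p = 0.0141) except without tunicamycin replicate 1 (0.066) or with DESeq2 (0.0651). Msmo1, named after its values were seen, was just past the threshold (log2 0.79 ± 0.26 SE, adjusted p = 0.0498). Its call ended without tunicamycin replicate 2 (0.154) or 3 (0.147), without untreated replicate 2 (0.228), with DESeq2 (0.128), with limma voom (0.0532), with robust edgeR (0.0507) or among leaders with a mean of at least 30 reads (0.0519). Pmvk, the phosphomevalonate kinase, had 820.29, 726 and 719 CPM in the tunicamycin libraries, against 1087, 1284 and 1467 CPM in the untreated libraries. The leader fell (log2 -0.76 ± 0.17 SE, adjusted p = 0.00421; 0.16 when scaled to CDS counts).

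Nuclear genes of oxidative phosphorylation had 46 tested leaders of 67, and 5 rose, 1 fell and 40 did not pass (median 0.16). Beside Uqcrc2, Atp5a1, the catalytic-core alpha subunit of ATP synthase, had 204, 176 and 219 CPM in tunicamycin-treated cells, against 123, 88.4 and 85.8 CPM in untreated cells (log2 1.01 ± 0.22 SE, adjusted p = 0.00293). The cytochrome oxidase subunit gene Cox7b was at log2 0.95 ± 0.22 SE, adjusted p = 0.00589 and Ndufa4, of the same complex, at log2 0.82 ± 0.19 SE, adjusted p = 0.00589. Each of these 4 passed as higher than its CDS, with differences of 0.81 to 1.50. The Ndufa4 difference did not pass without tunicamycin footprint replicate 3 (0.0729), and its leader call ended without tunicamycin replicate 3 (0.0627). Usmg5 and Ndufv2 were named after their values were seen. Usmg5, a small ATP synthase subunit, rose (log2 0.62 ± 0.17 SE, adjusted p = 0.0202). With each scaled within its own feature, that was less than its CDS (1.51 ± 0.19, difference -0.88 ± 0.17, adjusted p = 0.00124). The leader did not pass without tunicamycin replicate 2 (0.0835) or 3 (0.126) or without untreated replicate 2 (0.0912). Ndufv2, of complex I, had 2342, 1292 and 991 CPM under tunicamycin, against 2639, 2587 and 2133 CPM without it, which overlapped (log2 -0.67 ± 0.21 SE, adjusted p = 0.0386; 0.21 when scaled to CDS counts). Its call ended without tunicamycin replicate 2 (0.221) or 3 (0.343), without untreated replicate 2 (0.149), with DESeq2 (0.0754), with robust edgeR (0.054) or among leaders with a mean of at least 30 reads (0.0596).

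Ribosomal protein mRNAs start with an oligopyrimidine (TOP) tract that couples them to growth signals. Among their 33 tested leaders 4 fell and 0 rose, beside 4.77% fallen and 5.21% risen of all leaders tested. Of 48 large-subunit genes 17 were tested, and 0 rose, 1 fell and 16 did not pass (median 0.01). Of 33 small-subunit genes 16 were tested, and 0 rose, 3 fell and 13 did not pass (median 0.05). Rps15 had 888, 1127 and 828 CPM in tunicamycin-treated cells, against 1546, 2099 and 1318 CPM in untreated cells (log2 -0.80 ± 0.18 SE, adjusted p = 0.00493; 0.14 when scaled to CDS counts). Rps2 (log2 -0.98 ± 0.24 SE, adjusted p = 0.00847; -0.04 when so scaled) and Rpl8 (log2 -0.58 ± 0.17 SE, adjusted p = 0.0218; 0.33 when so scaled) fell as well. Each of these calls ended without tunicamycin replicate 3 or another library, for Rps15 without tunicamycin replicate 3 (0.0689) or without untreated replicate 2 (0.0826), for Rps2 without tunicamycin replicate 3 (0.0851) or without untreated replicate 2 (0.0869) and for Rpl8 without tunicamycin replicate 2 (0.128) or 3 (0.126). Rpl37a, at 117 leader reads, did not pass (log2 0.90 ± 0.33 SE, adjusted p = 0.0781) but differed from its CDS by 1.53 ± 0.33, adjusted p = 0.0031, except without tunicamycin footprint replicate 3 (0.0526).

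Elongation factors and other TOP mRNAs had 14 tested leaders of 20, and 1 rose, 3 fell and 10 did not pass (median -0.14). Pabpc1, the cytoplasmic poly(A) binding protein, had 409, 345 and 223 CPM under tunicamycin, against 708, 569 and 612 CPM without it (log2 -0.97 ± 0.19 SE, adjusted p = 0.0014; -0.08 when scaled to CDS counts). Its CDS changed by -0.79 ± 0.21, and the difference between leader and CDS did not pass ( -0.16 ± 0.18, adjusted p = 0.618). Btf3, of the nascent chain complex, had 3313, 2729.5 and 3472 CPM in the tunicamycin libraries, against 5432, 5748 and 4388 CPM in the untreated libraries. The leader fell (log2 -0.71 ± 0.18 SE, adjusted p = 0.00851; 0.24 when scaled to CDS counts), while Naca, its partner in that complex, had 927, 1250.3 and 1179.8 CPM in tunicamycin-treated cells, against 802, 757 and 652 CPM in untreated cells. The leader rose (log2 0.60 ± 0.17 SE, adjusted p = 0.022). The partners moved in opposite directions without overlap. The Btf3 call ended without tunicamycin replicate 2 (0.0966) or without untreated replicate 2 (0.0715), and the Naca call without tunicamycin replicate 2 (0.121) or 3 (0.0942) or without untreated replicate 2 (0.063) or 3 (0.0735). The histone chaperone gene Nap1l1 fell (log2 -0.59 ± 0.18 SE, adjusted p = 0.0317; 0.37 when scaled to CDS counts) with overlapping groups. Its call ended without any library but untreated replicate 3 (adjusted p up to 0.183).

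Leaders of initiation factors passed in both directions within the eIF3 complex, which holds the small subunit during scanning. Of 23 factors outside the eIF2 system 16 were tested, and 2 rose, 1 fell and 13 did not pass (median 0.16). Eif3d had 385, 500.11 and 480.39 CPM under tunicamycin, against 251, 254 and 226 CPM without it (log2 0.90 ± 0.18 SE, adjusted p = 0.0014) and Eif3a 497, 600.13 and 468 CPM in the tunicamycin libraries, against 291, 292 and 314 CPM in the untreated libraries (log2 0.80 ± 0.18 SE, adjusted p = 0.00362). Eif3b had 2278, 1266 and 1524 CPM in tunicamycin-treated cells, against 3289, 2164 and 2327 CPM in untreated cells, which overlapped (log2 -0.62 ± 0.20 SE, adjusted p = 0.0406; 0.28 when scaled to CDS counts). Its call ended without tunicamycin replicate 2 (0.296) or 3 (0.217), without untreated replicate 1 (0.171) or 2 (0.0607), with DESeq2 (0.0666) or among leaders with a mean of at least 30 reads (0.0553). Eif3d and Eif3a passed under each alternative. None of 7 tested start codon stringency genes and none of 5 tested genes of eIF2, eIF2B and the eIF2 kinases passed, with medians of 0.03 and -0.08. Eif4g2, which starts at a near-cognate codon, was at log2 -0.30 ± 0.17 SE, adjusted p = 0.282 (0.62 when scaled to CDS counts). Of mRNAs with near-cognate starts 4 were tested, and only Myc passed (median 0.03). None of 3 tested polyamine genes passed (median -0.21).

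Leaders of red-cell genes passed at shares near or below the 9.98% of all leaders. Of 27 haem and iron genes 21 were tested, and 1 rose, 0 fell and 20 did not pass (median 0.04). Tfrc, the transferrin receptor, had 2432, 2519 and 2659.8 CPM under tunicamycin, against 1743, 1703 and 1524 CPM without it (log2 0.62 ± 0.17 SE, adjusted p = 0.0153), higher than its CDS (0.61 ± 0.13, adjusted p = 0.00261). The Tfrc call ended without tunicamycin replicate 2 (0.0504) or 3 (0.0721), and its difference from CDS did not pass without tunicamycin footprint replicate 3 (0.0611). Of 25 red-cell membrane genes 18 were tested, and 0 passed (median -0.06). Slc4a1, the anion exchanger band 3, had 1185, 1339.8 and 1212 CPM in the tunicamycin libraries, against 1432, 2015 and 1652 CPM in the untreated libraries, with no overlap and no call (log2 -0.45 ± 0.17 SE, adjusted p = 0.0963; 0.50 when scaled to CDS counts). With each scaled within its own feature, its leader change was lower than its CDS change (-0.81 ± 0.16, adjusted p = 0.00124). The stem cell factor receptor gene Kit, at 90 leader reads, was at log2 1.03 ± 0.36 SE, adjusted p = 0.0692. Of 4 tested mRNAs with an iron-responsive element in the leader 0 passed (median -0.20), and the Fth1 leader (log2 0.40 ± 0.19 SE, adjusted p = 0.176) differed from its CDS (-0.42 ± 0.15) by 0.82 ± 0.18, adjusted p = 0.00307.

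Of 23 erythroid transcription factor genes 17 were tested, and 1 rose, 1 fell and 15 did not pass (median -0.05). Gfi1b, a repressor needed for red-cell and platelet formation, had 2193, 1553 and 1559.5 CPM in tunicamycin-treated cells, against 1435, 704 and 812 CPM in untreated cells (log2 0.84 ± 0.21 SE, adjusted p = 0.00829), with CDS and RNA changes of -0.02 ± 0.11 and -0.02 ± 0.08. The lowest treated value was just above the highest untreated one, and the call ended without tunicamycin replicate 1 (0.0677) or without untreated replicate 2 (0.089). Nfe2l1, a stress factor related to the erythroid factor NF-E2, fell (log2 -0.58 ± 0.17 SE, adjusted p = 0.0266; 0.34 when scaled to CDS counts) but lost its call without any library but untreated replicate 3 and with no filter (adjusted p up to 0.167). A list of 19 genes held p53 targets and Trp53 itself, and 9 of them, Trp53 included, were tested in these Trp53 -/- cells (median -0.02). Only Ccng1, cyclin G1, passed, with 258, 276 and 231 CPM under tunicamycin, against 399, 381 and 409 CPM without it (log2 -0.64 ± 0.17 SE, adjusted p = 0.0157, and 0.28 when scaled to CDS counts). The Ccng1 call ended without tunicamycin replicate 2 (0.0525) or 3 (0.131).

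**Figure D4:**
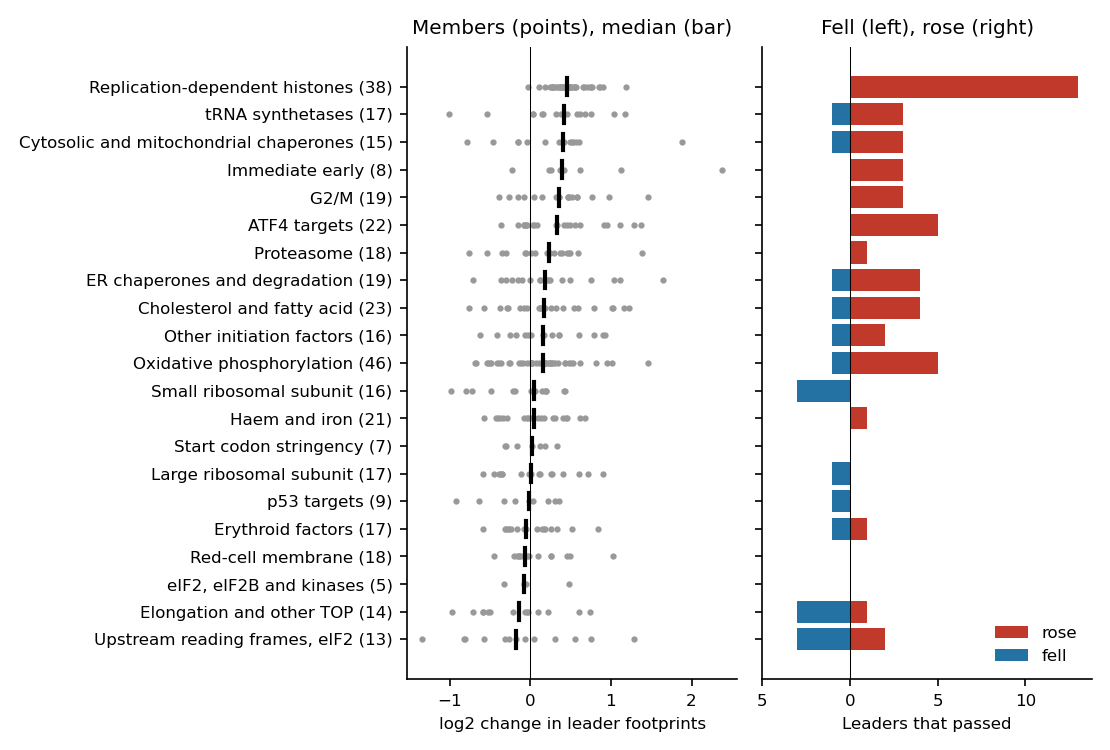
Left, log2 change in leader footprints (tunicamycin over untreated) of each tested member of the 21 gene lists with 5 or more tested leaders (points) with the list median (bar); right, the number of members that fell (blue, to the left) and rose (red, to the right), with the number tested in brackets. Histones lead with 13 risen and 0 fallen, and the mRNAs known for upstream reading frames stand at the bottom with a median of -0.18.

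The leader change went with the number of footprints on the coding sequence of the gene. When the leaders were split into 5 equal groups by CDS footprints over the 6 libraries, the median leader change was -0.15 in the lowest group (up to 727 CDS reads), -0.06, -0.03 and 0.05 in the next, and 0.15 in the highest (6966 reads or more). Leaders that rose numbered 15 of 894 (1.68%) in the lowest group and 110 of 894 (12.3%) in the highest, while those that fell numbered 36 (4.03%) and 29 (3.24%). The median CDS change was between 0.01 and 0.05 in each group. Split by RNA reads, the medians were -0.03, -0.05, -0.03, 0.0022 and 0.05, and split by leader reads they were -0.02, 0.05, -0.01, -0.03 and -0.04, with no steady order. The number that rose was also higher in the highest group than in the lowest for RNA reads (92 and 29) and for leader reads (84 and 13). The number that fell was higher there too, for RNA reads (47 and 27) and for leader reads (103 and 11), so calls in both directions were more numerous at more reads. The leaders that rose had a median of 6261 CDS reads, those that fell 2043 and those that did not pass 2165. Leader reads tend to be more numerous where CDS reads are, with medians of 131 in the lowest and 464 in the highest group by CDS reads, so detection differs between the groups too. The part that this has in the pattern was not tested.

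**Figure D5:**
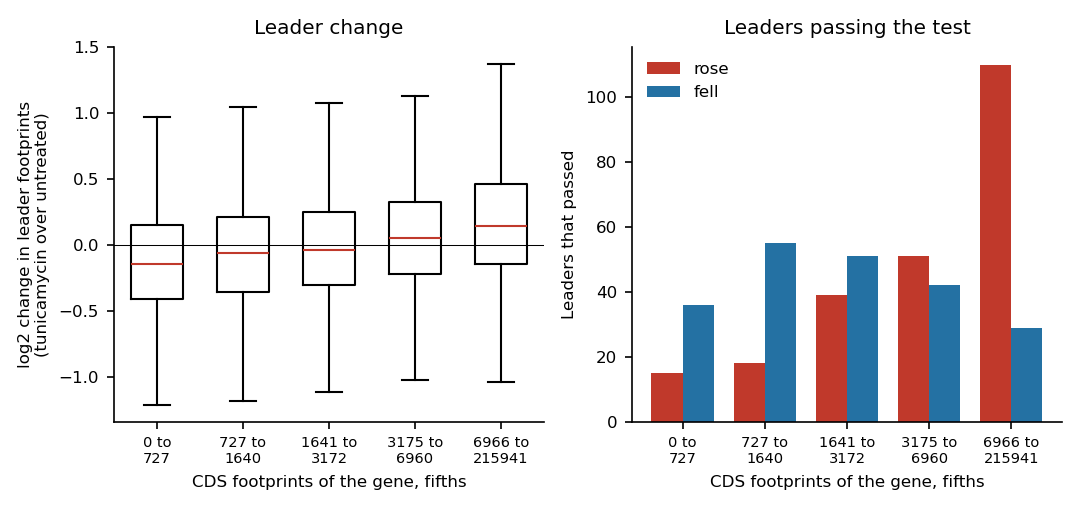
Left, boxes of the log2 change in leader footprints (tunicamycin over untreated; line at the median, box from the lower to the upper quartile, whiskers to the last value within 1.5 box lengths) for 5 equal groups of the 4469 leaders by CDS footprints of the gene; right, the number of leaders that rose (red) and fell (blue) in each group. The medians climb from -0.15 to 0.15 and the rises from 15 to 110.

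The called leaders were also described by properties that the comparison did not use. The table of RefSeq gene starts (GRCm38.p6) matched 3699 of the 4469 leaders. An ATG lay in the first 50 transcribed bases for 26.6% of risen leaders and 39.9% of fallen leaders, beside 34.2% of all matched. These compare with 48.8% of all genes in the table. A TOP-like start, a run of 5 pyrimidines from the first base, was held by 3.72% of risen and 5.78% of fallen leaders, beside 5.52% of all matched and 5.28% of all genes in the table. These shares are of annotated starts, and the start used in erythroblasts may differ. Over all leaders tested 5.21% rose and 4.77% fell, to be set beside the counts that follow. Of the tested leaders 686 had at least 10 reads in all 3 tunicamycin libraries and not in all 3 untreated ones. Of these 52 rose, Fosb, Herpud1, Chchd10, Anln and Psat1 among them. In the reverse case there were 87, of which 13 fell. Both sets were picked by the same counts that the test used, so their shares are no separate result. Leader reads outnumbered CDS reads for 197 tested leaders, of which 9 rose and 13 fell, near the shares of all leaders. A summed count within 10% of the CDS count was found for 58 leaders, of which 5 rose and 2 fell.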

How the data were processed

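The deposited table holds whole-number read counts per gene and feature (5' leader, CDS, 3' part) for ribosome footprints and per gene for total RNA, as the authors made them. Per the submitters' processing notes STAR, HTSeq and edgeR were used with builds mm10 and GRCm38, without versions or settings in the sources used here, and whether a read could be counted in both leader and CDS, or for overlapping genes, is not given. Per the labels' protocols, NEBNext small RNA reagents gave the footprint libraries and TruSeq the RNA libraries. Fragments carry no molecular identifiers, so duplicates of PCR are not removed by the counts.

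From these counts the leader lines of the 6 cycloheximide libraries were filtered with filterByExpr (minimum count 10, minimum total 15), scaled among themselves by TMM and tested with edgeR 4.0.16 in R 4.3.3, as a quasi-likelihood test with Benjamini-Hochberg adjustment over all leaders tested and a threshold of 0.05. The SE of a log2 change is its size divided by the square root of F. Scaled CPM are leader reads in 1000000 after TMM. Differences between leader and CDS changes were tested as an interaction with library as a block and each feature scaled on its own, and differences from RNA as an interaction over 12 libraries. CDS and RNA changes are given without a call. Alternatives were DESeq2 1.42.0, limma 3.58.1, other scalings, filters and exclusions, and leaving out each library. The main leader fit, its replicate block, limma voom and DESeq2 forms, and the main fits of both differences were tested on simulated counts first. The other alternatives and the CDS and RNA fits were not.

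Named leaders were, among calls with a mean of at least 20 leader reads a library and no overlap between the treatments, the 15 largest increases and the 15 largest decreases, then every tested mRNA known for upstream frames under eIF2 phosphorylation, up to 4 members of each other gene list by smallest p, and the 10 leaders with the most reads. Any other is said to be named after its values were seen. The members and lists were chosen with earlier results of these data known. Same-numbered libraries were not treated as pairs. Some leaders that this rule names are not reported here.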

Additional observations from a re-analysis of the deposited data

How the results depend on the processing

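The count of called leaders (446) stayed within 1.5 times under DESeq2 size factors, leader totals alone, limma voom, robust weights, no filter, a mean of at least 30 reads, and without histone or near-equal leaders. Scaling to CDS counts gave 3106, DESeq2 274 and adjusted p under 0.01 gave 208. Leaving out 1 library gave 146 to 583, for leader-to-CDS differences 146 to 529 (554 with all libraries) and for leader-to-RNA differences 179 to 491 (423). Leader-to-CDS differences numbered 186 with DESeq2 and 224 at adjusted p under 0.01, and leader-to-RNA differences 108 at that level. The leader share of footprints kept its direction, with differences of 2.95 to 4.18 points when 1 library was left out. Same-numbered tunicamycin and untreated libraries deviated together only weakly (correlations of 0.152, 0.0228 and 0.0943). Libraries 1 and 3 correlated best with their own number, a hint from the data and not the design. For number 2 this was nearly a tie, as tunicamycin replicate 2 was at 0.0216 with untreated replicate 3. A replicate block gave 559 calls, sharing all 446, and 543 leader-to-RNA calls.

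Scaling to CDS counts turned the sign of these leader changes, since it moved the median leader from -0.01 to 0.92: Arhgdib (0.37), Btf3 (0.24), Ccng1 (0.28), Derl1 (0.22), Dnaja1 (0.16), Eif3b (0.28), Nap1l1 (0.37), Nfe2l1 (0.34), Pmvk (0.16), Ppp1r15b (0.32), Rpl8 (0.33), Rps15 (0.14), Slc35a4 (0.13), Atf4 (0.78), Atf5 (0.11), Cebpb (0.85), Ifrd1 (0.66), Pnrc2 (0.63), Ndufv2 (0.21), Mt1 (0.51), Slc4a1 (0.50), Eif4g2 (0.62). Leaving out 1 library turned the sign of these values, none of them called, with ranges on the log2 scale of Atf4 leader -0.39 to 0.00292, Cebpb leader -0.20 to 0.12, Slc7a1 leader -0.28 to 0.24, Fosb leader minus CDS -0.31 to 0.15, Pabpc1 leader minus CDS -0.27 to 0.0196, Slc7a1 leader minus CDS -0.0742 to 0.28, Trp53 leader minus CDS -0.12 to 0.15, Cebpb leader minus RNA -0.31 to 0.0724, Cebpg leader minus RNA -0.000359 to 0.90, Slc7a1 leader minus RNA -0.45 to 0.0664, and the cause was not tested. The Trp53 leader-to-CDS difference also turned with DESeq2 (0.0042) and with no filter (0.0095). The lowest tested leaders had 43 reads over 6 libraries, so depth limits what can be seen there. The counts hold no read length or frame, and a read shared by leader and CDS would enter both.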
